A study of Arabidopsis thaliana with 6 samples.

Results

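The KNOX (KNOTTED1-like homeobox) genes of Arabidopsis thaliana were followed in seedlings of Col-0, the standard wild type, and of a line with RNA interference against sqtl1 (sqtl1 RNAi). The members are 8 genes, taken by identifier out of 38194 genes with values. They comprise 4 of class I, STM (AT1G62360), KNAT1 (AT4G08150), KNAT2 (AT1G70510) and KNAT6 (AT1G23380), and 4 of class II, KNAT3 (AT5G25220), KNAT4 (AT5G11060), KNAT5 (AT4G32040) and KNAT7 (AT1G62990). The family was selected on RPKM values of these libraries, with the difference between the RNAi line and Col-0 already known. The members' differences are therefore given as a description, without a test. Each genotype had 3 biological replicates of seedlings grown in 16 h light and 8 h dark at 22 °C and harvested entire at day 7 after stratification. Both groups have the Col-0 background. Plants grew on agar with sucrose, and the labels give no other allele or agent. The promoter that drives the RNAi construct, the number of independent lines and the gene that sqtl1 stands for are not stated in the labels, so the knockdown itself was not analysed here.

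KNOX proteins are homeodomain transcription factors of the TALE superclass, and they act as heterodimers with BELL homeodomain proteins. Class I genes are active in the shoot apical meristem, keep its cells undifferentiated and are switched off where a leaf forms. They are known to raise cytokinin and to restrain gibberellin in the meristem. Class II genes are expressed broadly in differentiating organs and are known to act against the class I programme in leaves, and KNAT7 is known as a regulator of secondary cell walls.

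The classes can be told apart within the homeodomain itself. The 36 coding bases that hold the core of the recognition helix, the part of the homeodomain that enters the major groove of DNA, are shown for all 8 members because they separate the family before any expression value is read. They are from RefSeq on build TAIR10.1 and lie in exon 4 of 4 in STM, exon 5 of 5 in KNAT1, KNAT2, KNAT6 and KNAT7, and exon 5 of 6 in KNAT3, KNAT4 and KNAT5. Each run is given 5′ to 3′ on the coding strand, and capitals mark bases that differ from STM.
STM (chr1:23058910-23058945, minus strand): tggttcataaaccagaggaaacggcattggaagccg
KNAT1 (chr4:5148080-5148115, minus strand): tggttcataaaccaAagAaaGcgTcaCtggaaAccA
KNAT2 (chr1:26582050-26582085, plus strand): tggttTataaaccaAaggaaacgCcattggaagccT
KNAT6 (chr1:8297562-8297597, minus strand): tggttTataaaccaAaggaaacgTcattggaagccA
KNAT3 (chr5:8737905-8737940, plus strand): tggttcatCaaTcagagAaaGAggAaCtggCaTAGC
KNAT4 (chr5:3512658-3512693, plus strand): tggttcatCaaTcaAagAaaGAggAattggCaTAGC
KNAT5 (chr4:15495829-15495864, plus strand): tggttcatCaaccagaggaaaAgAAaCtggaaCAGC
KNAT7 (chr1:23340268-23340303, plus strand): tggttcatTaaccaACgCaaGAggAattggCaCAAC
Over these bases the other class I genes differed from STM at 4 to 7 positions, and none of these differences changes the 12 encoded residues. The class II genes differed at 9 to 12 positions and each of them encodes 3 residues other than those of STM. Over the whole protein, as translated from the longest coding sequence, identity was 45.2% to 76.1% within class I, 63.4% to 86.9% within class II and 33.9% to 43.3% between classes. The closest pairs were KNAT3 with KNAT4 (86.9%) and KNAT2 with KNAT6 (76.1%). The multiple-mapping ratio in the deposited table was 0 for all 8 members, so no reads were listed as shared between these pairs. No annotated gene overlaps any of the 8 in the TAIR10.1 gene table.

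The values are RPKM, reads per kilobase of gene length after a scaling of each library, so levels can be compared between genes. A scaling to the reads on genes would make the sum of RPKM times length equal in all libraries. That sum was 1051600 to 1071469 in Col-0 and 926820 to 979309 in the RNAi line, and the scaling rule is not stated. Depth was estimated at 38.0 to 49.8 M reads per library. It is the library's sum of RPKM times length, divided by the step on that scale that 1 read is worth in short genes. The members were covered by an estimated 36 reads (KNAT2 in Col-0 replicate 2) to 2879 reads (KNAT1 in RNAi replicate 2). The leaf, root, vascular and shoot apex markers looked for were detected in both groups, except WUS. It had at most an estimated 1 read in any Col-0 library, under the 3 reads taken as the floor. The RNAi libraries were less alike than the Col-0 libraries: on the first principal component, with 82.4% of the variance, Col-0 lay between -38.8 and -36.9 and the RNAi replicates at 49.8, 42.6 and 21.7, replicate 3 nearest to Col-0.

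All 4 class I genes had higher levels in the RNAi line. The largest ratio between means was that of STM (SHOOT MERISTEMLESS; chromosome 1, 23058582 to 23062063), which is required to form and keep the shoot meristem. STM was at 1.70, 1.58 and 1.95 RPKM in Col-0 replicates 1 to 3 and at 12.65, 14.55 and 10.56 RPKM in the RNAi replicates. The lowest RNAi library lay several times above the highest Col-0 library. The mean was 1.74 ± 0.189 RPKM (SD, n = 3) in Col-0 against 12.6 ± 2.00 in the RNAi line, a ratio of 7.22, and the log2 fold change on log2(RPKM + 1) was 2.30 (SE 0.12).

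KNAT1 (BREVIPEDICELLUS; chromosome 4, 5147699 to 5151159), which acts with STM in the meristem and later shapes internodes and pedicels, reached the highest level of the class. It was at 5.12, 3.83 and 4.93 RPKM in Col-0 against 29.64, 28.17 and 20.44 RPKM in the RNAi line. RNAi replicate 3 was the lowest of its group and still well above Col-0. The means were 4.63 ± 0.696 and 26.1 ± 4.94 RPKM, a ratio of 5.64 (log2 fold change 2.26, SE 0.16).

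KNAT2 and KNAT6 are close paralogs that are expressed at the base of the meristem and at organ boundaries. KNAT2 (chromosome 1, 26576486 to 26582879) was the lowest member, at 0.69, 0.55 and 0.73 RPKM in Col-0 against 3.15, 3.43 and 2.86 RPKM in the RNAi line, a ratio of 4.79 between means. KNAT6 (chromosome 1, 8297241 to 8302651) was at 5.78, 5.20 and 5.37 RPKM in Col-0 against 13.47, 14.48 and 11.22 RPKM in the RNAi line, a ratio of 2.40. The groups did not overlap for either gene. Their log2 fold changes were 1.32 (SE 0.08) and 1.12 (SE 0.09). KNAT2 reached the mean of 1 RPKM needed to enter the fit only through its RNAi values.

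**Figure D1:**
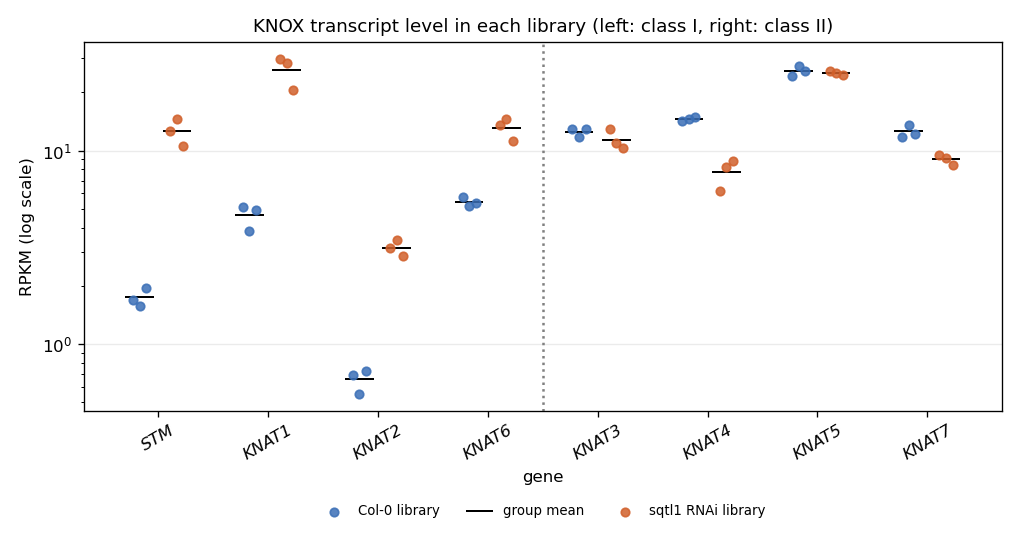
RPKM of the 8 KNOX genes on a log scale, with 1 point per library (3 Col-0, 3 sqtl1 RNAi) and a bar at each group mean. Class I genes lie higher in every RNAi library, from KNAT2 at 2.86 RPKM upwards, whereas KNAT4 and KNAT7 lie lower and KNAT3 and KNAT5 overlap.

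Class II genes were level or lower. KNAT4 (chromosome 5, 3509833 to 3513741), a paralog of KNAT3 that acts with it in organ differentiation, had the largest decrease of the family. It was at 14.29, 14.57 and 14.82 RPKM in Col-0 against 6.15, 8.18 and 8.84 RPKM in the RNAi line. All 3 RNAi values lay below Col-0, with replicate 1 lowest. The mean was 14.6 ± 0.265 in Col-0 against 7.72 ± 1.40 RPKM in the RNAi line, 1.89-fold lower (log2 fold change -0.85, SE 0.12).

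KNAT7 (chromosome 1, 23337167 to 23340692) was at 11.81, 13.58 and 12.24 RPKM in Col-0 against 9.46, 9.17 and 8.43 RPKM in the RNAi line. The groups did not overlap, and the mean was 1.39-fold lower (log2 fold change -0.43, SE 0.07). KNAT3 (chromosome 5, 8735944 to 8738601) was at 12.96, 11.75 and 12.88 RPKM against 12.94, 10.91 and 10.28 RPKM. KNAT5 (chromosome 4, 15493989 to 15496381) was at 24.29, 27.44 and 25.77 RPKM against 25.64, 25.27 and 24.48 RPKM. For KNAT3 and KNAT5 the groups overlapped, with log2 fold changes of -0.13 (SE 0.09) and -0.04 (SE 0.06). KNAT3 and KNAT4 are the pair with the most similar proteins, and the difference between their log2 fold changes was not tested.

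In the fit over 19458 genes, 6 of the 8 members were past an adjusted p of 0.05, which 52.6% of all genes tested passed. The 4 higher members stand beside 25.2% of genes called higher, and the 2 lower members beside 27.5% called lower. The groups did not overlap for 6 members and for 64.1% of all genes, in the higher direction for 4 members and 31.1%, and in the lower direction for 2 members and 33.0%. All 4 class I genes were past the threshold with a log2 fold change of at least 1, as were 3.36% of all genes tested. Nothing is read from these counts, since the contrast was known when the family was chosen. By log2 fold change, STM ranked 82 and KNAT1 88 of 19458 genes, with KNAT2 at 388 and KNAT6 at 551. The median over all genes tested was -0.0077. With libraries rescaled to an equal sum of RPKM times length, that median moved to 0.14 and the split from 4894 higher and 5346 lower to 7741 higher and 3505 lower. KNAT3 and KNAT5 then had log2 fold changes of 0.02 and 0.12, and the other 6 members kept their direction. Without RNAi replicate 1, KNAT3 was also past the threshold (log2 fold change -0.22).

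The RNAi replicates differed among themselves. Replicate 3 had the lowest value of its group for each of the 4 genes, with differences from the Col-0 mean of 2.08 log2 units for STM, 1.94 for KNAT1, 1.22 for KNAT2 and 0.92 for KNAT6. Replicate 2 had the highest value for STM, KNAT2 and KNAT6 and replicate 1 for KNAT1. KNAT4 was likewise nearest to Col-0 in replicate 3 (-0.66 log2 units) and farthest in replicate 1 (-1.12), whereas KNAT7 was farthest in replicate 3 (-0.52).

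**Figure D2:**
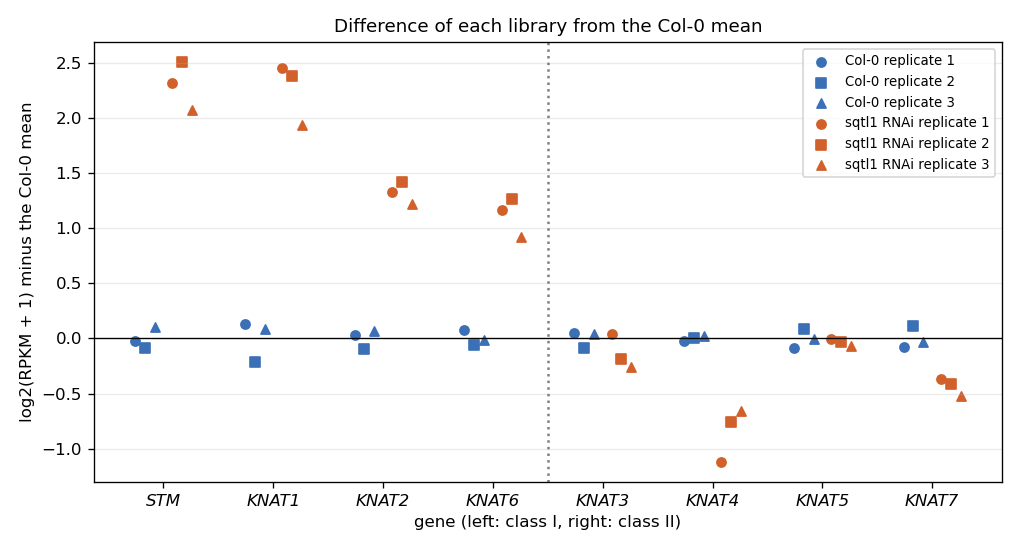
Difference of each library from the Col-0 mean on log2(RPKM + 1), for 3 Col-0 and 3 sqtl1 RNAi replicates, marked by replicate number. STM and KNAT1 lie 1.94 to 2.51 log2 units above Col-0, and RNAi replicate 3 is the lowest RNAi library for every class I gene.

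The make-up of KNOX transcripts shifted from class II to class I. Class I genes made up 17.3%, 14.2% and 16.5% of the summed KNOX RPKM in the Col-0 libraries and 52.1%, 53.1% and 46.4% in the RNAi libraries. Summed class I RPKM was 12.5 ± 1.15 in Col-0 against 54.9 ± 8.53 in the RNAi line, 4.40-fold higher, and summed class II RPKM was 65.5 ± 2.01 and 53.2 ± 1.11. KNAT1 alone went from 5.94% to 24.0% of the family and STM from 2.24% to 11.6%, while KNAT4 went from 18.7% to 7.24%.

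**Figure D3:**
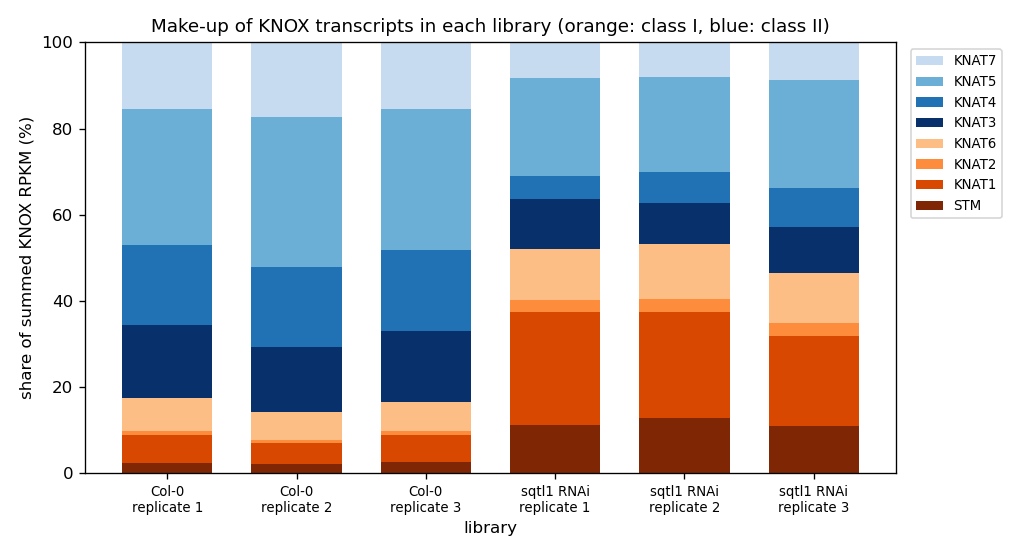
Share of each KNOX gene in the summed KNOX RPKM of each library, in percent, with class I in orange and class II in blue. Class I takes 14.2% to 17.3% of the Col-0 libraries and 46.4% to 53.1% of the RNAi libraries.

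The order of levels changed with it. In Col-0 all class II genes stood above all class I genes: KNAT5 was highest at 25.8 RPKM, then KNAT4 at 14.6, KNAT7 and KNAT3 at 12.5 each, KNAT6 at 5.45, KNAT1 at 4.63, STM at 1.74 and KNAT2 at 0.657. Of these neighbours, only the values of KNAT7 and KNAT3 overlapped. In the RNAi line KNAT1 (26.1 RPKM) and KNAT5 (25.1) led with overlapping values. KNAT6 (13.1), STM (12.6) and KNAT3 (11.4) followed, each overlapping the next, and then KNAT7 (9.02), KNAT4 (7.72), which overlapped KNAT7, and KNAT2 (3.15), which did not overlap KNAT4.

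Genes with a profile like a member's were sought over the 6 libraries by the root mean square difference of log2(RPKM + 1) after subtracting the Col-0 mean. Nearest to STM was CYP78A7, a cytochrome P450 of the KLUH family, at 0.603 against 6.34 RPKM (difference 0.093 log2 units), followed by PPDK, pyruvate orthophosphate dikinase (0.11), and the cytokinin response factor gene CRF6 (0.13). AT2G18600 was nearest to KNAT1 (0.076), and CYP78A7 and CRF6 were its next. PLC1, a phospholipase C gene, was nearest to KNAT2 (0.033). For KNAT6 the nearest were AT3G15720 (0.035), the ethylene receptor gene ETR2 (0.042) and the vascular NAC gene VND1 (0.046). TRM5, MSL3 and FZR3 were nearest to KNAT4 (0.051 to 0.053), and IPMI1, ATK3 and AT2G24580 to KNAT7 (0.037 to 0.043). For KNAT3 and KNAT5, whose profiles are nearly flat, FTSH12 (0.026) and AT3G54250 (0.011) were nearest. CYP78A7, PLC1 and VND1 entered the fit only through their RNAi values, and the pseudocount of 1 understates their changes. The ratio between means was 10.5 for CYP78A7 against 7.22 for STM. It was 6.66 for PLC1 against 4.79 for KNAT2, and 4.65 for VND1 against 2.40 for KNAT6.

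Because entire seedlings were measured, fewer or more cells of a type and less or more RNA per cell cannot be told apart. Levels of shoot apex and leaf markers also differed between the groups. The summed RPKM of 6 shoot apex markers (CLV3, WUS, UFO, CUC1, DRNL and AIL7) was 1.73 to 2.08 in Col-0 against 10.14, 10.61 and 7.29 in RNAi replicates 1 to 3. All 6 lay higher in every RNAi library, and WUS was at 0 in 1 Col-0 library. These 6 genes also belong to the meristem and boundary list of 27. In that list 15 genes lay higher in every RNAi library and 3 lower, beside 7563 and 7473 of all 38194 genes. The sum of 6 leaf mesophyll markers was 45158 to 47452 RPKM in Col-0 against 19064, 21020 and 30304 RPKM in RNAi replicates 1 to 3, and all 6 fell (limma adjusted p between 0.00079 and 0.0388). RNAi replicate 3, the lowest of its group for class I genes, was lowest in the shoot apex sum and highest in the leaf sum. It was also nearest to Col-0 on the first principal component, at 21.7 against 49.8 and 42.6. Whether these orders are linked was not tested. Most of the apex sum (RNAi mean 9.35 RPKM) came from AIL7 (4.11) and CUC1 (2.51). DRNL and WUS were lowest in RNAi replicate 1, at 1.05 and 0.04 RPKM against 1.18 and 0.06 in replicate 3. The 9 root markers summed to 3632 to 3818 RPKM in Col-0 against 2800 to 4102 in the RNAi line, most of it from PYK10 (3585 of a Col-0 mean of 3724 RPKM). Of the 7 root markers tested SHR and SCR rose, and CASP1 fell 1.55-fold. The 7 vascular markers summed to 62.7 to 65.1 and 66.9 to 72.2 RPKM, and 3 of them rose and 3 fell. No other marker was at 0 in any library. The part of tissue make-up in the KNOX values was not tested.

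The promoters of the class I genes are shown because these 4 genes were higher together, and that of KNAT4 because it had the largest decrease. Each is the 250 bases before the annotated gene start on TAIR10.1, 5′ to 3′ in the direction of the gene, with motif matches in capitals.
STM (chr1:23062064-23062313, minus strand): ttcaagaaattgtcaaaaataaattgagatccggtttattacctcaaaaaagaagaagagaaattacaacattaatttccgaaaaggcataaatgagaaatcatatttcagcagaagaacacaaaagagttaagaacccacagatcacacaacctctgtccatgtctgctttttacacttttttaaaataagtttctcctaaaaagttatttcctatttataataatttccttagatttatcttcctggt
KNAT1 (chr4:5151160-5151409, minus strand): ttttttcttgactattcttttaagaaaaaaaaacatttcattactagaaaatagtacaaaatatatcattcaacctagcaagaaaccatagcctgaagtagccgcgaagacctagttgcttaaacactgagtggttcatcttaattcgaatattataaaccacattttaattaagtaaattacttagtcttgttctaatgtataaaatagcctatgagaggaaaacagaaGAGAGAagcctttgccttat
KNAT2 (chr1:26576236-26576485, plus strand): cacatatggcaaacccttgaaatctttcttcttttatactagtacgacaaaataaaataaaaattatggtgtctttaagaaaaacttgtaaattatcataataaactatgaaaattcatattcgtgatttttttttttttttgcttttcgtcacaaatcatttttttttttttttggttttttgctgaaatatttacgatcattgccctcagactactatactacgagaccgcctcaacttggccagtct
KNAT6 (chr1:8302652-8302901, minus strand): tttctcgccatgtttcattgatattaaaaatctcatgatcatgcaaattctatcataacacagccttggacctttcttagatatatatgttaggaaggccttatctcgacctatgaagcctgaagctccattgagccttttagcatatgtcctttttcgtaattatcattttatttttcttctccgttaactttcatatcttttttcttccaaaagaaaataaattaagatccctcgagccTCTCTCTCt
KNAT4 (chr5:3509583-3509832, plus strand): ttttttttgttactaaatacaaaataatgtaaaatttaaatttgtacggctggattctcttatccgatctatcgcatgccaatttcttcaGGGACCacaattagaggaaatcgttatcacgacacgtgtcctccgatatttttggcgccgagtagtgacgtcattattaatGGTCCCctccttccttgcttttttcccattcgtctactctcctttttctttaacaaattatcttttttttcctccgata
Matches were sought on either strand for TGACAG, a site of KNOX and BELL proteins, GGNCCC, the core bound by TCP4-type proteins, AAACCCTA, the telobox, and GAGAGA, the repeat bound by BPC proteins. KNAT1 held 1 GAGAGA, 20 to 15 bases before the start. KNAT6 held 2 overlapping ones on the opposite strand, between 9 and 2 bases before the start. KNAT4 held 2 GGNCCC, from 160 and 79 bases before the start. Of 27443 promoters of the same length, 20.6% held GAGAGA, 7.35% GGNCCC, 5.86% TGACAG and 4.49% AAACCCTA. The other 5 windows held none of these letters, and no TGACAG or AAACCCTA was found in any of the 8.

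BELL genes, whose proteins pair with KNOX proteins and carry them into the nucleus, split in direction. Of 13 genes, 11 were tested, 3 rose and 6 fell, where 25.2% and 27.5% of all genes tested did, and the median log2 fold change was -0.29. Those that rose were BLH1, PNY and BLH11. PNY (PENNYWISE), the meristem partner of STM and KNAT1, was at 2.47, 2.09 and 2.28 RPKM in Col-0 against 3.13, 3.94 and 4.09 in the RNAi line (log2 fold change 0.52, SE 0.10, adjusted p = 0.00527). BLH1, a known partner of KNAT3, rose from 10.3 ± 0.395 to 15.5 ± 1.63 RPKM (adjusted p = 0.00225). BLH11 rose from 0.530 ± 0.080 to 1.97 ± 0.448 RPKM (adjusted p = 0.00127) and was tested only through its RNAi values. PNF, the paralog of PNY, lay under the filter at 0.61, 0.42 and 0.44 against 0.73, 0.73 and 0.82 RPKM, with no overlap.

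Among the BELL genes that fell were SAW1 and SAW2, which are known to restrain KNAT1 at leaf margins. SAW1 fell from 6.05 ± 0.293 to 4.27 ± 0.580 RPKM (adjusted p = 0.00757) and SAW2 from 9.27 ± 0.387 to 6.31 ± 0.981 RPKM (adjusted p = 0.00629). BLH3 fell 1.46-fold, BLH10 1.33-fold and BEL1, known for its role in the ovule integument, 1.42-fold (adjusted p = 0.000787, 0.00269 and 0.00228). BLH7 fell 1.12-fold with an adjusted p of 0.047, and with an equal sum of RPKM times length its log2 fold change of -0.15 became 0.01. That call was lost without any 1 library other than RNAi replicate 3 (adjusted p between 0.0662 and 0.133). BLH6, the partner of KNAT7 in secondary wall control, was at 8.11, 6.40 and 6.12 RPKM in Col-0 against 5.25, 5.24 and 5.76 in the RNAi line (adjusted p = 0.0509), and it passed without Col-0 replicate 3 (0.0485) or without RNAi replicate 3 (0.0442). ATH1, a light-regulated partner of STM, was at 6.71, 6.30 and 5.93 against 6.99, 6.49 and 6.35 RPKM (log2 fold change 0.06, adjusted p = 0.47), and with an equal sum of RPKM times length its log2 fold change was 0.20 (adjusted p = 0.0445). BLH5 was at 0.02 to 0.09 RPKM in Col-0 against 0.08 to 0.25 RPKM in the RNAi line, at most an estimated 22 reads. Summed over the 13 genes, BELL RPKM was 92.4 ± 2.78 in Col-0 against 84.6 ± 0.931 in the RNAi line, while summed KNOX RPKM was 77.9 ± 1.13 and 108 ± 9.55.

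**Figure D4:**
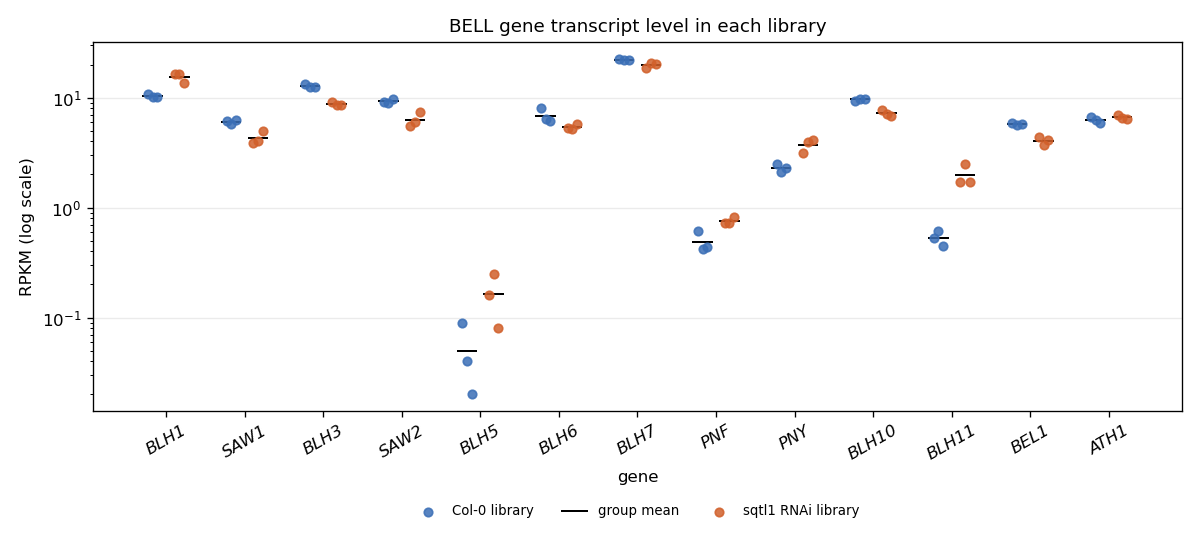
RPKM of the 13 BELL genes on a log scale, 1 point per library and a bar at each group mean. PNY, BLH1 and BLH11 lie higher in the RNAi line, SAW1, SAW2, BLH3, BLH10 and BEL1 lie lower, and ATH1 overlaps.

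A short list held KNATM and 3 OVATE family genes, whose proteins bind KNOX or BELL proteins. KNATM encodes a KNOX-like protein without a homeodomain that binds BELL proteins. It rose from 1.43, 1.21 and 1.23 RPKM to 4.16, 5.08 and 4.96 RPKM, 3.67-fold (log2 fold change 1.32, SE 0.09, adjusted p = 0.000217). All 3 RNAi values lay above Col-0. Of the 3 OVATE family genes listed beside it, OFP1 was tested and did not pass (adjusted p = 0.0608), and the list's median log2 fold change was 0.88. OFP5, under the filter, was lower, at 0.63, 0.52 and 0.45 against 0.24, 0.25 and 0.27 RPKM. Without RNAi replicate 3 both tested genes of the list passed.

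Known regulators of KNOX genes changed in either direction. Of 20 genes, 18 were tested, 5 rose and 6 fell, with a median log2 fold change of -0.014. Over all genes tested 25.2% rose and 27.5% fell, so these counts lie near the background. AS1, the MYB repressor that keeps KNAT1, KNAT2 and KNAT6 off in leaves, was at 21.17, 18.69 and 21.11 RPKM in Col-0 against 22.19, 25.75 and 26.37 RPKM in the RNAi line (adjusted p = 0.032), a call lost without any 1 library other than RNAi replicate 1 (adjusted p between 0.0615 and 0.107). Its partner AS2 lay under the filter, at 0.29, 0.45 and 0.46 against 1.53, 0.94 and 0.87 RPKM. BOP1, a co-factor at the leaf base, rose from 0.523 ± 0.090 to 1.61 ± 0.397 RPKM (adjusted p = 0.00318). It reached the filter only through its RNAi values and was not tested without RNAi replicate 1 or 2. BOP2 was at 6.55 ± 0.140 and 7.05 ± 0.331 RPKM (adjusted p = 0.182, and 0.0155 with an equal sum of RPKM times length). JLO, a boundary gene of the LBD family, was at 0.147 ± 0.012 and 0.300 ± 0.089 RPKM and was not tested.

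The 6 lower regulators were 5 TCP genes of the leaf maturation group and YAB3, which is known to help repress KNOX genes in leaves. TCP4 fell from 11.8 ± 1.21 to 5.87 ± 0.483 RPKM, 2.01-fold (log2 fold change -0.90, adjusted p = 0.000567). TCP2 fell 1.84-fold and TCP10 1.78-fold (adjusted p = 0.000897 and 0.00107), and YAB3 1.45-fold, from 21.9 ± 1.14 to 15.1 ± 1.54 RPKM (adjusted p = 0.00266). Its paralog FIL was at 19.47, 19.97 and 18.79 against 17.85, 19.91 and 22.2 RPKM (adjusted p = 0.735). Among genes of Polycomb repression, which holds KNOX genes silent in leaves, CLF, SWN and LHP1 had log2 fold changes of -0.04, -0.01 and -0.13 (adjusted p = 0.59, 0.845 and 0.0992), and all 3 were above 0 with an equal sum of RPKM times length. The other 3 regulators that rose, named after their values were seen, were the Polycomb genes EMF2 (log2 fold change 0.17, adjusted p = 0.02) and RING1A (0.20, 0.0221) and the histone chaperone gene HIRA (0.21, 0.0152). SE, needed for leaf polarity and microRNA processing, was at 20.8 ± 0.777 and 23.2 ± 1.33 RPKM (adjusted p = 0.0687, and 0.0172 without RNAi replicate 3). The count of 11 fell to 7 without Col-0 replicate 2 or 3 and to 6 without RNAi replicate 2. In each of those fits 6 genes were lower.

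The meristem and boundary genes other than KNOX that passed the threshold rose, except CRN. This CLAVATA pathway receptor gene fell 1.32-fold (adjusted p = 0.0134). That call was lost without Col-0 replicate 3 and with an equal sum of RPKM times length, where no gene of the list was called lower. Of 27 genes, 19 were tested, 7 rose and 1 fell, beside 25.2% and 27.5% of all genes tested, with a median log2 fold change of 0.081. With an equal sum of RPKM times length 11 rose and none fell, and with no filter on low values 11 rose and 2 fell. CLV2 and HAM1 lay lower in every RNAi library without passing (adjusted p = 0.372 and 0.0527). CUC1 and CUC2, NAC genes that mark organ boundaries and activate STM, were at 0.24 to 0.33 and 0.27 to 0.39 RPKM in Col-0. They rose to 2.49, 3.20 and 1.85 RPKM and to 1.88, 2.33 and 1.3 RPKM, ratios of 8.57 and 5.35 (adjusted p = 0.000664 and 0.00158). CUC3 was at 0.86, 0.78 and 0.66 against 1.70, 1.14 and 0.93 RPKM (adjusted p = 0.0756), and passed without RNAi replicate 3 (0.0222). The AP2-type genes AIL7 and ANT, which act in meristem and primordium growth, rose 3.91-fold and 1.79-fold (adjusted p = 0.00105 and 0.000358). CUC1 and CUC2, both among the 7 that rose, entered the fit only through their RNAi values, as did CUC3. CUC2 and CUC3 were not tested without RNAi replicate 1 or 2.

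WUS and CLV3, the organizer gene and the peptide gene that define the stem cell niche, lay under the filter, and with no filter neither passed (adjusted p = 0.168 and 0.0678). WUS was at 0.00, 0.01 and 0.02 RPKM in Col-0 against 0.04, 0.16 and 0.06 RPKM in the RNAi line, at most an estimated 10 reads. CLV3 was at 0.13, 0.09 and 0.24 against 0.38, 0.71 and 0.37 RPKM, at most 20 reads. No value of the groups overlapped for either gene. In Col-0, however, the counts are near the floor of 3 reads for CLV3 and under it for WUS, at most 1 read. LAS, an axillary meristem gene, was at 1.06 ± 0.070 and 1.11 ± 0.169 RPKM (adjusted p = 0.798).

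The hormone lists hold genes of cytokinin and gibberellin synthesis, turnover and response, and are not lists of KNOX targets. Cytokinin genes changed in either direction. Of 22 cytokinin genes, 18 were tested, 2 rose and 5 fell, beside 25.2% and 27.5% of all genes tested, with a median log2 fold change of -0.024. The split was 5 higher and 4 lower with an equal sum of RPKM times length, and 5 and 5 without RNAi replicate 3. IPT7, the synthesis gene that STM is known to activate, lay under the filter at 0.20, 0.42 and 0.35 against 0.65, 0.54 and 0.34 RPKM, with overlap. IPT5, another synthesis gene, was at 3.61 ± 0.204 and 4.46 ± 0.715 RPKM (adjusted p = 0.0935, and 0.0206 without RNAi replicate 3). IPT3, a nitrate-responsive synthesis gene, rose from 2.03 ± 0.17 to 8.02 ± 2.72 RPKM (adjusted p = 0.00177). LOG1, a cytokinin-activating enzyme gene, fell 1.79-fold, and the response regulator genes ARR6 and ARR4 fell 1.51-fold and 1.44-fold (adjusted p = 0.00236, 0.00258 and 0.00124).

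Of 9 gibberellin genes, 6 were tested, 4 rose and none fell, beside 25.2% and 27.5% of all genes tested, with a median log2 fold change of 0.55. They stand on either side of the pathway. GA20OX1, the synthesis gene that STM and KNAT1 are known to repress, rose from 0.79, 0.77 and 0.76 RPKM to 1.73, 1.91 and 1.5 RPKM, 2.22-fold (adjusted p = 0.00162), and was tested only through its RNAi values. GA20OX2 rose 3.77-fold and GA3OX1, which makes active gibberellin, from 4.72 ± 0.242 to 7.09 ± 0.678 RPKM (adjusted p = 0.00032 and 0.00252). GA2OX2, an inactivating enzyme that class I KNOX proteins are known to promote, rose from 4.87, 3.92 and 4.32 RPKM to 11.02, 12.43 and 10.89 RPKM, 2.62-fold (adjusted p = 0.00024). GA2OX4, another inactivating gene, lay under the filter at 0.75, 0.84 and 0.68 against 0.52, 0.98 and 1.34 RPKM, with overlap. GA2OX1, of the same enzyme family and chosen after its values were seen, was lower at 0.53, 0.39 and 0.46 against 0.09, 0.12 and 0.09 RPKM, also under the filter. The synthesis gene GA20OX3, likewise under the filter and chosen after its values were seen, was higher in every RNAi library. It was at 0.23, 0.31 and 0.29 against 1.55, 1.03 and 0.61 RPKM.

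Secondary wall genes, the setting in which KNAT7 is best known, changed at 3 of 12 genes tested of 19, beside 52.6% of all genes tested, with a median log2 fold change of -0.20. CESA4, a cellulose synthase of secondary walls, fell from 3.33 ± 0.101 to 2.04 ± 0.248 RPKM (adjusted p = 0.00224). IRX9, a xylan synthesis gene, fell 1.54-fold (adjusted p = 0.0199) and C4H, an early enzyme of phenylpropanoid and lignin synthesis, rose 1.34-fold (adjusted p = 0.00258). The IRX9 call was lost without Col-0 replicate 1, Col-0 replicate 3 or RNAi replicate 2 (adjusted p = 0.0729, 0.0655 and 0.0621), and with an equal sum of RPKM times length (0.0512). Without RNAi replicate 1, 7 genes of this list were past the threshold, 6 of them lower. The count was 2 without Col-0 replicate 1, without Col-0 replicate 3 or without RNAi replicate 2.

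**Figure D5:**
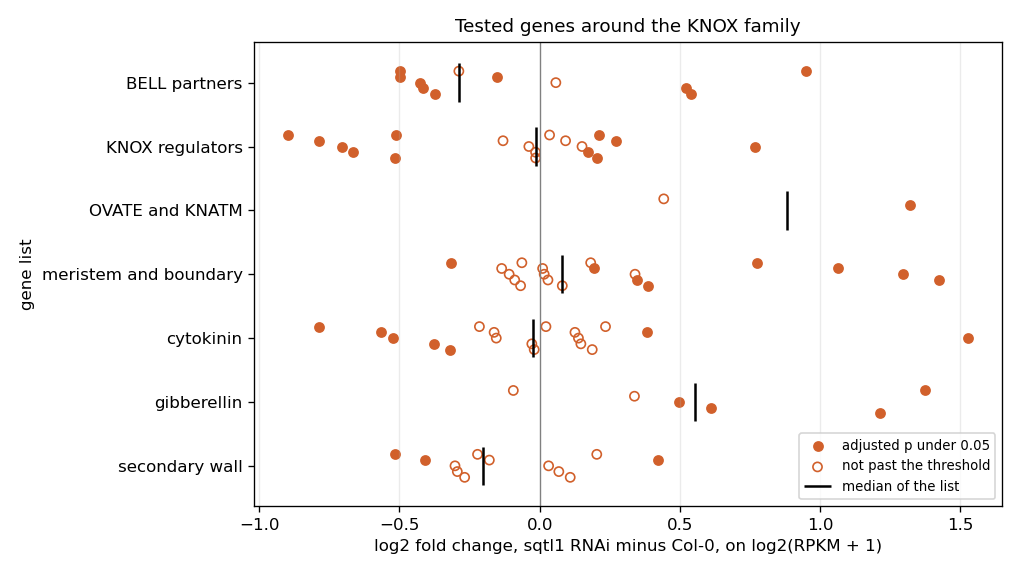
Log2 fold change, sqtl1 RNAi minus Col-0 on log2(RPKM + 1), of each tested gene in 7 lists around the KNOX family. Points are filled where the adjusted p was under 0.05, with a line at each list's median. BELL genes, regulators and cytokinin genes lie on either side of 0, whereas the 4 called gibberellin genes lie between 0.50 and 1.38.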

How the data were processed

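Polyadenylated RNA was sequenced from seedlings of 2 genotypes, with 3 libraries each. Per the submitters' processing notes, Trimmomatic 0.39 and Bowtie2 2.2.6 were used on build TAIR10; the library kit was stranded per the labels, but no source used here gives what each tool did, the annotation, the counter or its strand setting. The authors deposited RPKM values at 2 decimals with gene lengths in kb and a fraction per gene that the header calls a weighted ratio of multiple mapping. Of 38199 lines, 5 named no gene and were left out. RPKM are not counts, so groups were compared with limma 3.58.1 (R 4.3.3) on log2(RPKM + 1) with a mean-dependent variance prior, over genes whose mean over the 6 libraries reached 1 RPKM, and Benjamini-Hochberg adjustment over all of them. The pseudocount of 1 and the scale understate changes of low genes, and ratios are between mean RPKM. SDs are over n = 3 libraries.

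Low values of genes under 0.12 kb lay on whole reads, after an offset of 0.25 reads and within 0.0055 RPKM, for 89.2% to 91.5% of values, which gave the estimated reads. They cover counting error only, and may be reads or pairs. No 2 libraries agreed within sampling noise.

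The members, lists and the rule for named genes were chosen with earlier results of these data known. The rule takes all KNOX and BELL genes, KNATM and set regulator, meristem and hormone genes. It adds up to 4 called genes per list with the largest change, and the 3 nearest profiles per member. All 122 list entries matched by identifier. Sequences and coordinates are RefSeq's on TAIR10.1, read with Biopython 1.88. The fit was tested on simulated data with the same spread in both groups, whereas the RNAi libraries here were less alike than the Col-0 libraries. Nothing is read from that run. Alternatives changed the pseudocount, filter, scaling, prior, block and libraries, with voom weights on estimated reads added after seeing the data.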

Additional observations from a re-analysis of the deposited data

How the results depend on the processing

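The members' log2 fold changes, which the choice of genes rests on and which therefore lend no support, ranged over 15 alternatives from 1.38 to 2.83 for STM, 1.68 to 2.47 for KNAT1, 0.79 to 1.26 for KNAT6, -0.94 to -0.63 for KNAT4 and -0.47 to -0.28 for KNAT7, and over 14 from 0.53 to 2.25 for KNAT2, which a filter at 5 RPKM removed. With an equal sum of RPKM times length, log2 fold changes changed sign for KNAT3 (0.0186), KNAT5 (0.121), BLH7 (0.00501), CLF (0.107), SWN (0.137) and LHP1 (0.018). That scaling also brought ATH1, BOP2, SE, CUC3 and IPT5 past the threshold (adjusted p = 0.0445, 0.0155, 0.0107, 0.0422 and 0.0313). Quantile normalization turned LAS (-0.000335). Over leave-one-out fits the range crossed 0 for KNAT5 (-0.0788 to 0.00587), SWN (-0.0439 to 0.0242, and 0.0129 without RNAi replicate 1), CLF (-0.0781 to 0.000836), FIL (-0.0395 to 0.11) and LAS (-0.0194 to 0.095). Of the genes whose sign changed, only BLH7 had been called. Counts past the threshold that moved by over 1.5 times were the following. With no filter, the meristem and boundary list had 13 and the OVATE and KNATM list 2. With the filter at 5 RPKM, meristem and boundary had 3, gibberellin 2 and secondary wall 1, since fewer genes were tested, and no OVATE or KNATM gene was left. The OVATE and KNATM list also had 2 with the equal sum, and secondary wall had 5 with voom weights. The cause was not tested for these. Over leave-one-out fits, the count ranged from 6 to 11 for KNOX regulators, from 2 to 7 for secondary wall, and from 1 to 2 for OVATE and KNATM.

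Same-numbered libraries deviated from their group means with correlations of -0.064, 0.093 and 0.02, and differently numbered ones with -0.136 to 0.115. With 3 libraries per group, these values cannot tell whether the numbers pair the samples. With the replicate block, calls went from 10240 to 9034 over all genes, and were 6 for KNOX, 8 for BELL, 8 for regulators and 4 for secondary wall. Levels below about 0.1 RPKM rest on few reads and allow no fold.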

Other observations

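Genes of the shoot apex under the filter of 1 RPKM, chosen after their values were seen, were also higher in every RNAi library. UFO, an F-box gene that works with the floral regulator LFY, was at 0.24, 0.15 and 0.22 RPKM in Col-0 against 0.89, 0.97 and 0.69 in the RNAi line. LFY was at 0.12, 0.10 and 0.12 against 0.49, 0.55 and 0.49 RPKM, an estimated 5 to 8 and 30 to 38 reads. DRNL, an AP2-type gene of organ founder cells, was at 0.09, 0.17 and 0.15 against 1.05, 1.68 and 1.18 RPKM. LOF1, a boundary MYB gene known to act with KNAT6, was at 0.45, 0.40 and 0.53 against 1.23, 1.42 and 1.48 RPKM. With no filter on low values these 4 genes had limma adjusted p of 0.00514 (UFO), 0.00123 (LFY), 0.00513 (DRNL) and 0.00312 (LOF1). The other 4 meristem and boundary genes under the filter did not pass, with adjusted p of 0.168 (WUS), 0.0678 (CLV3), 0.124 (DRN) and 0.202 (STIP).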
